A study of Mus musculus with 6 samples.

Results

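Mature miRNAs that are made without Drosha were examined in extracellular vesicles (EVs) of mouse colon and of mouse bone marrow-derived dendritic cells (BMDCs). The set held 6 of the 1966 mature miRNAs in the deposited table, chosen by name: mmu-miR-320-3p and mmu-miR-484, whose precursors are capped transcripts, and mmu-miR-877-5p, mmu-miR-877-3p, mmu-miR-1224-5p and mmu-miR-702-3p, whose precursors are mirtrons. Of these, 5 were detected in at least 1 library and passed the minimum of 10 counts in at least 3 libraries, while miR-1224-5p was listed at 0 in all 6 libraries.

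The small RNA libraries came from 3 colon EV and 3 BMDC EV preparations, and all 6 carried a floxed Rab27A genotype (Rab27A fl/fl) by their labels, with no Cre named there. Colon EVs were taken from the medium of colon explants cultured for 16 h, as fraction 2 of an iodixanol gradient, a density gradient for vesicles. BMDC EVs were taken from bone marrow cells that GM-CSF had turned into dendritic cells over 7 days. The serum of the explant medium was depleted of exosomes, whereas BMDCs grew in complete medium, so that source and medium cannot be told apart. The labels name the gradient for the colon preparations alone. The study's methods likewise describe it for colon EVs and give ultracentrifugation for BMDC vesicles. Its results text names the gradient for both sources, and whether isolation differed between them is therefore uncertain. If it did, source and isolation cannot be told apart. Nothing in the labels stated that the replicates were separate animals or cultures, and p-values therefore measured the spread between these libraries, which may be technical.

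Total counts ranged from 173358 to 645303 in colon EVs and from 83996.6 to 178454 in BMDC EVs. Values of single libraries are given in the order of replicates 1, 2 and 3. Levels are CPM after TMM scaling, which are counts relative to a library size adjusted on the assumption that most miRNAs did not differ. A count of 3 corresponded to 4.65 to 17.3 unscaled CPM in colon EV libraries and to 16.8 to 35.7 in BMDC EV libraries. This floor takes in counting error alone. The labelled sources were set beside lists of miRNA markers. These lists were chosen with earlier results of these data known, so they are no independent check. Of 4 markers of smooth muscle and mesenchyme, 1 was tested and was higher in colon EVs, and none of 3 red cell markers was tested. All 9 tested markers of colon epithelium were higher in colon EVs, where the list held 22.6% to 29.9% of counts against 0.378% to 0.797% in BMDC EVs, and all 7 tested haematopoietic and myeloid markers were higher in BMDC EVs, with 30.7% to 32.3% against 0.514% to 1.19%. These cell type markers moved with every difference between the sources given here, and their part in those differences was not tested. In such bulk preparations, fewer vesicles of a cell type and less of a miRNA per vesicle cannot be told apart.

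Most miRNAs are cut from their transcripts by RNase III enzymes in successive steps. In the nucleus, Drosha with its partner DGCR8 releases a hairpin from a long primary transcript, and in the cytoplasm Dicer removes the loop to leave a duplex, from which 1 strand, the 5p or the 3p arm, is loaded into an Argonaute protein. Mirtrons skip the Drosha step because the hairpin is a short intron, whose ends are set by the spliceosome and which is freed by debranching. In capped precursors such as that of miR-320, RNA polymerase II starts transcription at the 5′ end of the hairpin itself, the hairpin keeps the cap of the transcript, and for miR-320 the 3p arm, away from the cap, is the one that is loaded. Both kinds still need Dicer. How the precursors were made in these cells was not measured, and the classes are used here as names of the sets.

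The positions of the hairpins on GRCm38 differed between the classes. Mir320 lay at chr14:70443510-70443591 on the plus strand, in no intron of that strand, with its 5′ end 63 bases from the start of Polr3d, a subunit of RNA polymerase III encoded on the opposite strand. Mir484 lay at chr16:14159626-14159692 on the plus strand, also in no intron, with the nearest gene start, that of Marf1, 359 bases away on the opposite strand. Mir877, at chr17:35960730-35960814 on the minus strand, was exactly the 85-base intron of Abcf1, which encodes a translation factor of the ABC family. Mir1224, at chr16:20604452-20604536 on the plus strand, was exactly an 85-base intron of Vwa5b2. Mir702, at chr5:136991433-136991541 on the plus strand, began 9 bases before a 102-base intron of Plod3, a collagen lysyl hydroxylase, and ended 2 bases before the end of that intron.

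**Figure D1:**
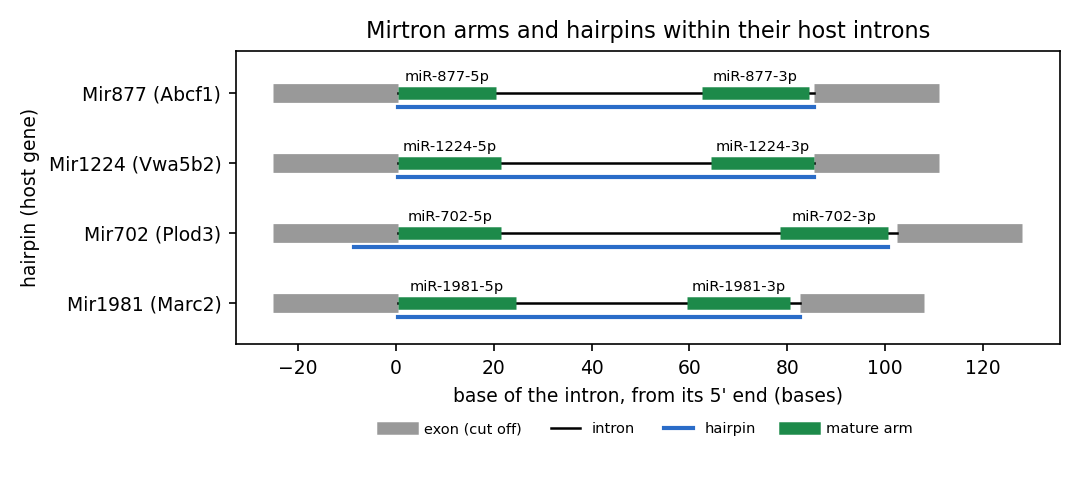
Hairpins and mature arms of the mirtrons drawn to scale on their host introns, with the position in bases from the first base of the intron on the horizontal axis. The Mir877, Mir1224 and Mir1981 hairpins fill introns of 85, 85 and 82 bases, while Mir702 starts 9 bases before its 102-base intron.

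The mature sequences of the members are shown from RefSeq on GRCm38.p6, where 5 of the 6 had an entry, because the seed, bases 2 to 8 of the miRNA and printed in capitals, decides which targets pair with it, and because the ends of the mirtron arms carry the sequence of splice sites.
miR-484: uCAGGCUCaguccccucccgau
miR-877-5p: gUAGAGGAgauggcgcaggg
miR-877-3p: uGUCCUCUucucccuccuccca
miR-1224-5p: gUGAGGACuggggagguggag
miR-702-3p: uGCCCACCcuuuaccccgcucc
The seeds of these 5 miRNAs differed from each other, and no other mature miRNA of the table with a sequence had any of them. The 5p arms of Mir877 and Mir1224 began with GU, the first bases of most introns, as did 5.32% of the 695 5p arms of the table with a sequence. Pyrimidines, which precede the 3′ splice site of an intron, made up 90.9% of miR-877-3p and 81.8% of miR-702-3p, against a median of 59.1% over 707 3p arms, of which 0.283% and 4.38% were at least as rich, respectively.

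The mirtron hairpins are shown beside the capped Mir484 hairpin, with the mature arms in capitals, to let the mirtron arms, which lie at or near the ends of an intron, be read against a hairpin that lies in no intron of its strand.
Mir484: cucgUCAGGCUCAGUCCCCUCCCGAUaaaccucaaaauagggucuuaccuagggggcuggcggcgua
Mir877: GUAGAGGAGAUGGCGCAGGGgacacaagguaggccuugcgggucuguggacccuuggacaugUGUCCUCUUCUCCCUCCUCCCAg
Mir1224: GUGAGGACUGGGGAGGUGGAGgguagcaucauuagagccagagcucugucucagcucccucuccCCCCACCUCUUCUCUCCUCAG
Mir702: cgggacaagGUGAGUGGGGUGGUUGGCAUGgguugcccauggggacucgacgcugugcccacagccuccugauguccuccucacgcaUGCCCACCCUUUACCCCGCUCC
In Mir877, the 5p arm covered bases 1 to 20 of the intron and the 3p arm bases 63 to 84 of 85. The arms of Mir1224 covered bases 1 to 21 and 65 to 85, which are the first and the last base of its intron. In Mir702, the 5p arm began at base 1 of the intron and the 3p arm ended at base 100 of 102. In Mir484, the mature miRNA covered bases 5 to 26 of the hairpin.

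The first comparison asked which members differed between the vesicles of the 2 sources. The capped miR-320-3p was higher in colon EVs, the mirtron miRNAs miR-877-5p, miR-877-3p and miR-702-3p were higher in BMDC EVs, and miR-484 did not pass the test. Over all 220 tested miRNAs, 169 (76.8%) passed a Benjamini-Hochberg adjusted p under 0.05 in the quasi-likelihood test of edgeR, 89 (40.5%) with higher levels in BMDC EVs and 80 (36.4%) with higher levels in colon EVs. A difference between the sources was thus the usual state of a tested miRNA, and the share of members that passed, 4 of 5 tested, lay near this background. The assumption behind TMM scaling, that most miRNAs did not differ, was therefore not met by the tested miRNAs. Fold changes depend on the scaling, and that of miR-320-3p was −1.24 on the log2 scale with TMM and −0.78 with library size alone. The median log2 fold change of BMDC EVs over colon EVs was 0.19 over all tested miRNAs, with quartiles of −1.89 and 2.36.

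Among the capped miRNAs, miR-320-3p was the most abundant member in both sources. Its deposited counts were 482.28, 280.08 and 149.33 in the colon EV libraries and 72.61, 47.37 and 88.58 in the BMDC EV libraries. After scaling, these were 957, 1391 and 936 CPM in colon EVs and 473, 471 and 448 CPM in BMDC EVs. Every colon EV library was thus above every BMDC EV library, as in 1 direction or the other for 180 (81.8%) of the tested miRNAs, and the colon EV libraries were spread more widely. Colon EVs averaged 1095 ± 257 CPM and BMDC EVs 464 ± 13.7 CPM (SD, n = 3 each), and the log2 fold change of BMDC EVs over colon EVs was −1.24 (SE 0.275, edgeR adjusted p = 4.76e-04). This difference was of moderate size for these sources, since 32.3% of tested miRNAs had a log2 fold change as low or lower. By level, miR-320-3p ranked 65th among the 220 tested miRNAs in colon EVs and 90th in BMDC EVs. Each of its 6 counts was fractional, and to the extent that its reads were divided among matches by the authors' counting its level is uncertain. The same limit applies to miR-484 and miR-877-3p, with fractional counts in 5 libraries each, and to miR-877-5p, with 1 such library.

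From the same hairpin, miR-320-5p, the arm that carries the cap in the precursor, was scarce in both sources. Its deposited counts were 7.21, 5.62 and 3.25 in the colon EV libraries and 0.5, 0 and 0.5 in the BMDC EV libraries, too few for the test.

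For miR-484, the other capped miRNA, the deposited counts were 22.5, 2 and 7.5 in the colon EV libraries and 22.5, 4.5 and 9.5 in the BMDC EV libraries. In scaled units the colon EV libraries held 43.7, 9.94 and 50.2 CPM and the BMDC EV libraries 142, 40.1 and 50.3 CPM, so that the sources overlapped, with 1 BMDC EV library above all others and 1 colon EV library below them. The means were 34.6 ± 21.6 CPM and 77.6 ± 56.4 CPM (SD, n = 3 each), with a log2 fold change of 1.15 (SE 0.610) that did not pass the edgeR test (adjusted p = 0.0930). The summed counts of 32 in colon EVs and 36 in BMDC EVs gave a rate ratio of BMDC EVs over colon EVs of 3.04 on unscaled library sizes, with an exact 95% interval of 1.83 to 5.05 for counting error alone. miR-484 entered the test because the count of 9.5 in BMDC EV replicate 3 was rounded to 10, and at this depth a difference between the sources of the size seen for miR-320-3p could not be told from the spread between libraries. Without BMDC EV replicate 1, the library with the highest level, the log2 fold change was 0.38 (edgeR adjusted p = 0.631), and without colon EV replicate 2, the library with the lowest level, it was 0.63 (edgeR adjusted p = 0.460). It passed the test without BMDC EV replicate 2 (1.32, edgeR adjusted p = 0.0388) or BMDC EV replicate 3 (1.38, edgeR adjusted p = 0.0433), and with scaling by library size alone (1.64, edgeR adjusted p = 0.0319).

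The 2 capped miRNAs were also set against each other within each library, a comparison that does not depend on the scaling between libraries. The count of miR-320-3p, with 0.5 added to both counts, was 21.4, 112 and 17.6 times that of miR-484 in the colon EV libraries and 3.27, 10.6 and 8.52 times in the BMDC EV libraries. The ratio was higher in every colon EV library than in every BMDC EV library. On the log2 scale colon EVs were at 5.12 ± 1.47 and BMDC EVs at 2.73 ± 0.90 (SD, n = 3 each), a difference of −2.39 for BMDC EVs minus colon EVs (exact permutation test, two-sided, p = 0.1, the smallest that 3 against 3 libraries allow). Without colon EV replicate 2, where the count of miR-484 was 2, the difference was −1.55.

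Among the mirtron miRNAs, miR-877-5p, the arm that begins at the 5′ splice site of the Abcf1 intron, was the most abundant in BMDC EVs. Its deposited counts were 3, 4 and 0 in the colon EV libraries and 53, 46 and 57.33 in the BMDC EV libraries. All BMDC EV libraries were far above the colon EV libraries, which were near or at the floor. The mean was 8.61 ± 10.2 CPM in colon EVs and 364 ± 88.6 CPM in BMDC EVs (SD, n = 3 each), with a log2 fold change of 5.35 (SE 0.609, edgeR adjusted p = 2.62e-07), a value at the 97.3th percentile of tested miRNAs. From the summed counts of 7 and 156, the rate ratio on unscaled library sizes was 60.2, with an exact 95% interval of 28.5 to 152 for counting error.

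The opposite arm of the same hairpin, miR-877-3p, had deposited counts of 2.5, 4.4 and 3 in the colon EV libraries and of 31.33, 13.03 and 17.33 in the BMDC EV libraries. Again no library of 1 source reached those of the other. The mean was 14.2 ± 8.90 CPM in colon EVs and 139 ± 58.1 CPM in BMDC EVs (SD, n = 3 each), with a log2 fold change of 3.52 (SE 0.643, edgeR adjusted p = 7.23e-05) and a rate ratio of 18.3 (exact 95% interval 9.04 to 41.9, for counting error). In BMDC EVs the 5p arm was counted more often than the 3p arm in all 3 libraries, while in colon EVs both arms were at or below 4.4 counts in each library and no order between them was read.

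For miR-702-3p, from the intron of Plod3, the deposited counts were 1, 2 and 0 in the colon EV libraries and 16, 14 and 22 in the BMDC EV libraries. The colon EV libraries were all under the floor of 3 counts, whereas the BMDC EV libraries lay close together. The mean was 118 ± 19.4 CPM in BMDC EVs and 3.97 ± 5.26 CPM in colon EVs (SD, n = 3 each). The fitted log2 fold change of 4.83 (SE 0.710, edgeR adjusted p = 6.12e-06) depended on the count added to values near 0, and the summed counts of 3 and 52 gave a rate ratio of 46.8 with an exact 95% interval of 15.2 to 234 for counting error. Its other arm, miR-702-5p, was listed at 0 in all colon EV libraries and at 0, 3 and 2 counts in the BMDC EV libraries.

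The mirtron Mir1224 was not detected from either arm, as both miR-1224-5p and miR-1224-3p were listed at 0 in all 6 libraries. A total of 3 counts over the libraries of a source, which a count of 0 allows, corresponds to 2.85 unscaled CPM in colon EVs and to 7.71 CPM in BMDC EVs. The 3 mirtron miRNAs that were tested passed the count minimum only through BMDC EVs, where all 3 libraries had at least 10 counts, against 0 libraries of colon EVs. Passing the minimum through 1 source favours a difference in that direction, and the shared direction of the 3 is therefore not counted as support for a difference between the classes.

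**Figure D2:**
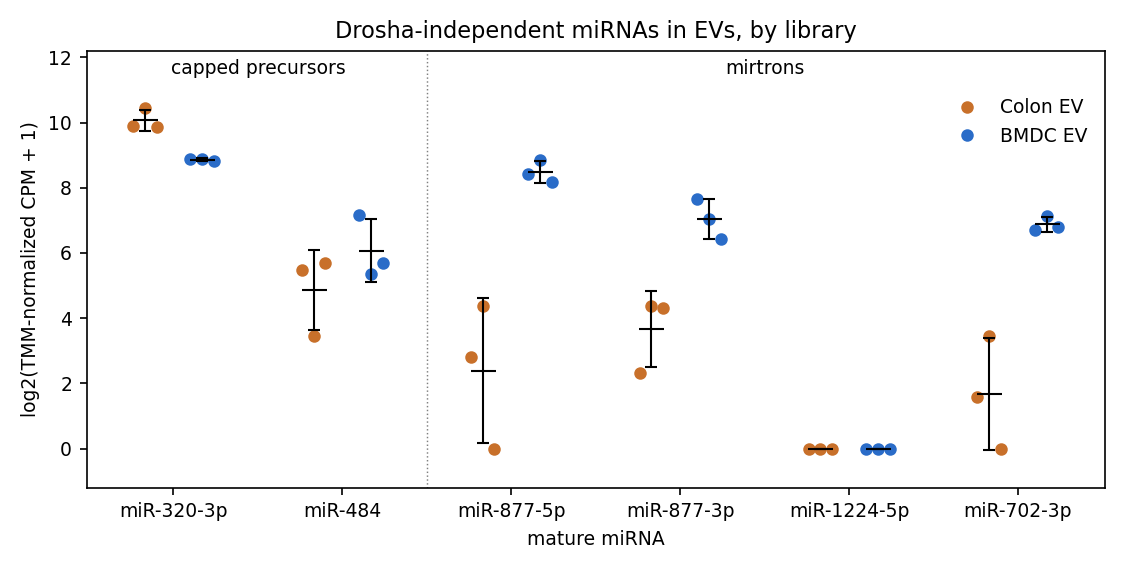
Level of the 6 members in each library, as log2 of TMM-scaled CPM plus 1, with colon EV and BMDC EV libraries side by side and the mean ± SD of these log2 values for the 3 libraries of each source. miR-1224-5p is at 0 throughout, and the 3 libraries of a source overlap those of the other for miR-484, sit higher in colon EVs for miR-320-3p, and sit higher in BMDC EVs for miR-877-5p, miR-877-3p and miR-702-3p.

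The order of the members differed between the sources. In colon EVs, miR-320-3p was above miR-484, whose highest library was at 50.2 CPM, and the levels of miR-484, miR-877-3p, miR-877-5p and miR-702-3p overlapped between neighbours in this order. In BMDC EVs, miR-320-3p and miR-877-5p had overlapping libraries at the top. miR-877-5p was above miR-877-3p in every BMDC EV library, and miR-877-3p, miR-702-3p and miR-484 overlapped below them. Libraries made by ligation capture miRNAs with unequal efficiency, so that an order between miRNAs is that of counts and not necessarily of molecules.

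Both classes were then summed within each library. The 2 capped miRNAs together held 781, 1212 and 906 unscaled CPM in the colon EV libraries and 749, 607 and 555 in the BMDC EV libraries. The mirtron miRNAs held 9.30, 43.0 and 17.3 CPM in the colon EV libraries and 789, 869 and 538 CPM in the BMDC EV libraries, in the same order. For capped miRNAs the lowest colon EV library was thus just above the highest BMDC EV library, while for mirtron miRNAs the sources were far apart in the opposite direction. The means were 966 ± 222 CPM against 637 ± 101 CPM for capped miRNAs and 23.2 ± 17.6 CPM against 732 ± 173 CPM for mirtron miRNAs (SD, n = 3 each, colon EVs first).

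Within a library, where scaling drops out, the capped sum, with 0.5 added to the summed counts of both classes, was 77.6, 26.9 and 45.0 times the mirtron sum in the colon EV libraries and 0.950, 0.701 and 1.03 times in the BMDC EV libraries. The log2 ratio of colon EVs was 5.51 ± 0.764 and that of BMDC EVs −0.18 ± 0.294 (SD, n = 3 each). Capped members thus made up nearly all of the members' counts in colon EVs, and about equal counts of capped and mirtron members were found in BMDC EVs. The capped sum was mostly miR-320-3p and the mirtron sum mostly the arms of 1 hairpin, Mir877, so the ratio compares few precursors. It was only described, as no test was planned for a sum over members. The members were chosen by name, with earlier results of these data known. The ratio also depended on which mirtrons were summed. A wider sum took all 56 miRNAs with both hairpin ends at the ends of a short intron, described below. It was 347 ± 120 unscaled CPM in colon EVs and 3906 ± 393 CPM in BMDC EVs (SD, n = 3 each). This wider sum was below the capped sum in every colon EV library and above it in every BMDC EV library. It included the mirtron members, and miR-1981-5p alone supplied most of its counts in each library. Of its 136, 91 and 76 counts from the colon EV libraries, 100, 67 and 63 were miR-1981-5p. For the BMDC EV libraries, miR-1981-5p made up 272, 198 and 398 of 516, 352 and 617 counts. The wider sum thus also rests mostly on few precursors and does not describe the 56 miRNAs broadly. All members together were a small share of the libraries, at 0.0790% to 0.126% of counts in colon EVs and 0.109% to 0.154% in BMDC EVs.

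**Figure D3:**
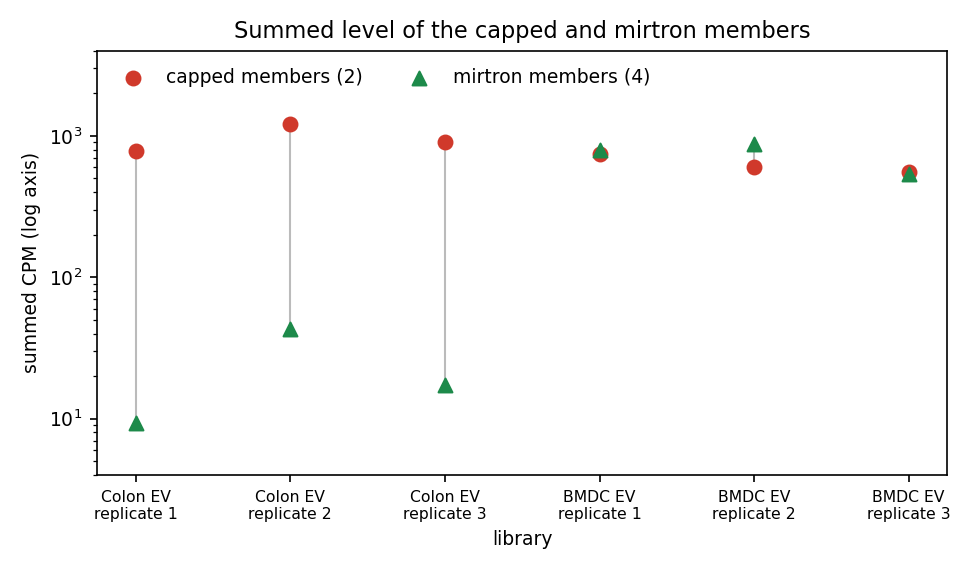
Summed unscaled CPM of the capped and the mirtron members in each of the 6 libraries, on a log axis. The capped sums lie between 555 and 1212 CPM in all libraries, whereas the mirtron sums run from 9.30 to 43.0 CPM in colon EVs and from 538 to 869 CPM in BMDC EVs.

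The pattern of each member over the 6 libraries was set against that of the other tested miRNAs by Pearson's r of log2 CPM. The libraries fall into 2 sources, so r mostly reflects the difference between them. The nearest to miR-320-3p were miR-125b-5p (r = 0.977), miR-375-3p (r = 0.975) and let-7c-5p (r = 0.972). miR-877-5p and miR-702-3p were each other's nearest (r = 0.998), followed for both by miR-671-5p, with r of 0.992 and 0.996. The nearest to miR-877-3p was miR-5121 (r = 0.987) and the nearest to miR-484 was miR-186-5p (r = 0.947), after which r fell to 0.834.

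To see the mirtron members among other miRNAs of short introns, all miRNAs of the table were listed whose hairpin had 1 or both ends within 10 bases of an end of an intron of at most 200 bases on the same strand. The list held 194 mature miRNAs from 99 hairpins, 56 miRNAs with both ends at intron ends and 138 with 1 end there, which are called tailed mirtrons when the other end is trimmed. A place at an intron end does not show that a hairpin is made without Drosha. No count was listed for 108 of them, 86 had at least 1 count, and 8 passed the count minimum, including the 3 mirtron members.

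All 8 passed the edgeR test with higher levels in BMDC EVs, a direction called for 40.5% of all tested miRNAs. Of the 8, 5 reached 10 counts in no colon EV library and so could be tested only through BMDC EVs. This favours that direction, and the 8 are therefore not set against that share as a group. The other 3, miR-1981-5p, miR-3572-5p and miR-5121, had at least 10 counts in all colon EV libraries and could have differed in either direction. Their log2 fold changes were 2.67, 2.11 and 2.63, against a median of 0.19 and an upper quartile of 2.36 over all tested miRNAs. Nothing particular to miRNAs of intron ends was tested.

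The best counted of these with both ends at an intron was miR-1981-5p, a known mirtron. Its hairpin, at chr1:184822407-184822488 on the minus strand, was exactly an 82-base intron of Marc2, which encodes a mitochondrial amidoxime reductase, and it is shown with its mature arms in capitals because it follows the same layout as Mir877.
Mir1981: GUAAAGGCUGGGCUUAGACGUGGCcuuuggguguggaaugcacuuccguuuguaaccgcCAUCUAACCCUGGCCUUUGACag
The deposited counts of miR-1981-5p were 100, 67 and 63 in the colon EV libraries and 272, 198 and 398 in the BMDC EV libraries. Every BMDC EV library was above the colon EV libraries, here with counts well over the floor in both sources. The mean was 309 ± 101 CPM in colon EVs and 1916 ± 134 CPM in BMDC EVs (SD, n = 3 each), with a log2 fold change of 2.67 (SE 0.287, edgeR adjusted p = 1.36e-07). Its 3p arm, miR-1981-3p, was counted less, with 5 to 8 counts in colon EV libraries and 6.25 to 26.5 in BMDC EV libraries, and did not reach the test.

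The remaining 4 miRNAs at intron ends differed widely in level. miR-3062-5p, from an intron of Pfas, an enzyme of purine synthesis, was at 14.5 ± 1.71 CPM in colon EVs and 297 ± 108 CPM in BMDC EVs (SD, n = 3 each), with a log2 fold change of 4.25 (edgeR adjusted p = 7.09e-07). miR-7012-5p, at 1 end of an intron of Dennd4b, was at 6.73 ± 3.01 CPM and 313 ± 125 CPM, with a log2 fold change of 5.56 (edgeR adjusted p = 2.26e-07), and miR-3572-5p, at 1 end of an intron of Cnot3, a subunit of the deadenylase complex CCR4-NOT, was at 63.8 ± 23.8 CPM and 263 ± 18.1 CPM, with a log2 fold change of 2.11 (edgeR adjusted p = 2.73e-04). The Mir3572 hairpin began 9 bases inside this 80-base intron and ran 15 bases past its end. miR-5121, at 1 end of an intron of the ribosomal protein gene Rpl13a, was the most abundant at 7636 ± 1986 CPM in colon EVs and 47073 ± 14796 CPM in BMDC EVs, with a log2 fold change of 2.63 (edgeR adjusted p = 1.65e-07), but its hairpin overlaps the small nucleolar RNA gene Snord33 and reads of both cannot be told apart. Of the 78 miRNAs of the list that had a count but were not tested, 5 had more than 3 counts summed over the libraries of each source, and no direction was read for the 78.

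**Figure D4:**
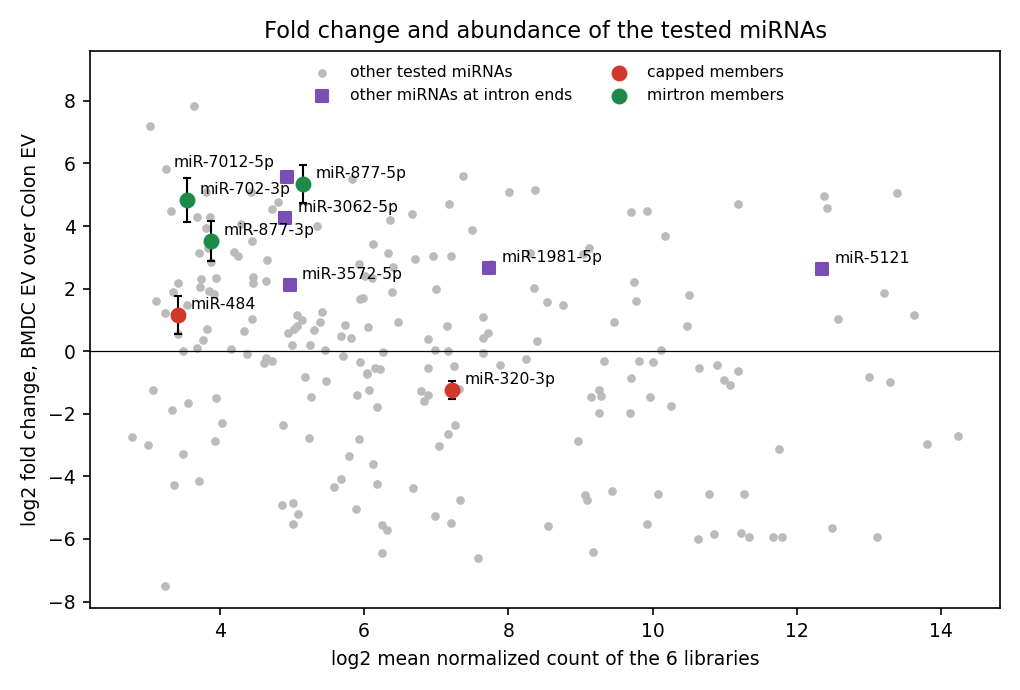
Log2 fold change of BMDC EVs over colon EVs against the log2 mean normalized count of the 6 libraries for the 220 tested miRNAs, with capped members in red, mirtron members in green (error bars, SE of the log2 fold change) and other miRNAs at intron ends as purple squares. miR-320-3p sits below 0 at −1.24, and the mirtron members sit between 3.52 and 5.35 among miRNAs of low mean count.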

How the data were processed

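EV small RNA was isolated with the miRNeasy Micro kit and sequenced from QIAseq miRNA libraries. The authors deposited estimated counts for each mature miRNA, without normalization and with fractional values. The submitters' processing notes name STAR 2.7.6a, featureCounts 1.6.3, DESeq2 1.30.1 and the builds GRCm38 and mm10, without roles, and how reads with several matches were divided or molecular identifiers counted is not given in the sources used here.

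Columns were matched to libraries by the labels. After rounding, a miRNA was kept if 3 libraries or more had 10 or more counts, and the 220 kept were compared with edgeR 4.0.16 (quasi-likelihood test, TMM scaling, no block) in R 4.3.3, with Benjamini-Hochberg adjustment over all 220. The SE is the log2 fold change divided by the root of F. Rate ratios carry exact 95% binomial intervals. Libraries of a source were correlated (r of at least 0.955) and differed beyond counting error (chi-square per degree of freedom of at least 6.25). None was thus a copy of another library's counts. Whether libraries were made from separate vesicle preparations or from the same material cannot be read from this. The labels number replicates 1 to 3 in both sources. Libraries of the same number did not deviate together (mean r = −0.113), so the numbers were not taken as pairs.

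Introns came from GENCODE vM21 (GRCm38) and sequences from RefSeq, with 1923 of the 1966 names matched to a hairpin. The miRNAs named are the members, their other arms and every tested miRNA at an intron end, with the 3 most similar miRNAs of each member by r of log2 CPM (prior count 2). Members, lists and tests were chosen with earlier results of these data known. Alternatives were DESeq2 1.42.0, limma 3.58.1 with voom, other scalings and count filters, counts that were not rounded, a robust fit, the replicate block, a base level of 100 counts and leaving out each library in turn.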

Additional observations from a re-analysis of the deposited data

How the results depend on the processing

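miR-320-3p kept its direction and passed the test in all 18 alternatives run, with a log2 fold change from −1.73 to −0.78, and from −1.45 to −1.16 with each library left out. Of the 18, the base level of 100 was no new fit. It kept the rows of the main fit at that level, so the value of miR-320-3p could not change there. miR-877-5p (4.81 to 6.05), miR-877-3p (2.72 to 3.99) and miR-702-3p (4.17 to 5.72) passed in all 17 alternatives that could be run on them. The study's methods also set a base level of at least 100. Of the members tested, miR-320-3p alone reached this level, at a mean normalized count of 149. By the same measure miR-877-5p was at 35.7, miR-877-3p at 14.7, miR-702-3p at 11.7 and miR-484 at 10.8. miR-484 ranged from 0.38 to 1.64 over 15 alternatives and passed in 3, at 1.64 with library size alone and at 1.32 and 1.38 without BMDC EV replicate 2 or 3, with 0.38 to 1.38 over the libraries left out. With counts not rounded, miR-484 was not tested. The number of miRNAs that passed was 169 of 220 tested and stayed within 1.5 times 169 in 17 of 18 alternatives (164 to 231). The number tested also differed, and the 231 were of 771 miRNAs tested with no count filter. With a mean normalized count of at least 100, 85 of the 100 miRNAs at that level passed. BMDC EVs had the higher level for 37 of these and colon EVs for 48. The replicate block changed no call of a member (log2 fold change of miR-320-3p −1.21, of miR-484 1.16, of miR-877-5p 5.42, of miR-877-3p 3.49 and of miR-702-3p 4.83, with 164 miRNAs called). For the ratio of miR-320-3p to miR-484 the replicate block gave −2.39 (exact paired permutation p = 0.25, the smallest it allows), and leaving out a library gave −2.88 to −1.55. Scaling moved the median of all tested miRNAs from 0.19 (TMM) to 0.06 (DESeq2 size factors), 0.39 (upper quartile) and 0.64 (library size alone), and the share of calls that were higher in BMDC EVs from 52.7% to 49.7%, 56.4% and 60.0%. The log2 fold change of miR-320-3p was −1.24, −1.37, −1.01 and −0.78 with these scalings, in the same order. Relative to the medians miR-320-3p lay between −1.43 and −1.40. A change of scaling shifts all tested miRNAs by nearly the same amount, so this narrow range was set in advance and is no check. At these depths a level under 10 counts in a library, as for miR-484 in 4 libraries and for the mirtron members in all colon EV libraries, is set by few reads.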
